A study of Mus musculus with 2 samples.

Results

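The circadian clock genes described here are Arntl, Clock, Per1, Per2, Per3, Cry1, Cry2, Nr1d1, Nr1d2 and Dbp, 10 of the 33696 genes in the deposited matrices. They were taken by symbol, and all 10 were found. They were measured by droplet-based single-cell RNA sequencing of CD45+ immune cells of C57BL/6J mouse liver, wild type by the labels, which had been enriched on a Ficoll gradient and sorted. The untreated library served as the age-matched control of the other, whose mice had received concanavalin A (ConA). This jack-bean lectin stimulates T cells through their surface sugars, and repeated doses are used as a tolerance model. The dose was 10 mg/kg into a vein, 1 time a week over 3 weeks. The number and age of the mice, the interval between the last injection and collection, and the time of day at which the livers were taken are not stated in the sources at hand. Time of day sets the level of most of these genes in a living animal, so that treatment, time of collection and library cannot be told apart in any difference below.

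The libraries held 18088 untreated and 18762 ConA barcodes with 71289226 and 73589264 UMIs, each UMI standing for 1 captured RNA molecule. The filters kept 17632 and 17767 cells, whose median depth was 3128 and 3471 UMIs. The libraries shared 82 barcode sequences. A cell was placed in a class when it held a UMI of exactly 1 of 6 lineage markers, which placed 9125 untreated and 9958 ConA cells. The gates were Cd79a for B cells (3231 untreated and 3136 ConA cells), Cd3e for T cells (1582 and 4641), Ncr1 for NK cells and ILC1 (626 and 872), Csf3r for neutrophils (2419 and 470), Csf1r for monocytes and macrophages (876 and 337) and Siglech for plasmacytoid dendritic cells, pDC (391 and 502). Further markers of each class, not used for gating, were in sum highest in the gate of that name in both libraries. The margin over the next gate was smallest for the monocyte and macrophage markers (2.90-fold and 1.85-fold), and conventional dendritic cell markers summed to 116 and 394 CPM in the Csf1r gate.

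The clock is a loop of transcription factors that runs in nearly every nucleated cell. Arntl (BMAL1) and Clock encode its activators, which pair, bind E-box sequences and switch on the Per and Cry genes, whose proteins return to the nucleus and block the pair. The same activators switch on Nr1d1 and Nr1d2, which encode the repressors REV-ERB alpha and beta, and Dbp, a transcription factor of clock output. REV-ERB proteins bind ROR elements in Arntl and silence it, while the activating ROR receptors compete for these sites, so that Arntl and the REV-ERB genes peak at opposite times of day. In immune cells the clock is known for rhythms in leukocyte traffic and cytokine release.

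The sequences upstream of the members' start sites were searched for the motifs named in this loop. RefSeq promoter windows (build GRCm38.p6) were at hand for 9 of the 10 members. The 250 bases upstream of Arntl (chr7:113207215-113207464, plus strand), Per1 (chr11:69098699-69098948, plus strand) and Cry1 (chr10:85185055-85185304, minus strand) are shown 5′ to 3′. They were picked as examples of a match to a search pattern, the E-box for Per1 and Cry1 and a loose form of the ROR core for Arntl. Capitals mark matches on either strand to the E-box CACGTG or to TNGGTCA, a loose form of the core of a ROR element in which N is any base.
Arntl: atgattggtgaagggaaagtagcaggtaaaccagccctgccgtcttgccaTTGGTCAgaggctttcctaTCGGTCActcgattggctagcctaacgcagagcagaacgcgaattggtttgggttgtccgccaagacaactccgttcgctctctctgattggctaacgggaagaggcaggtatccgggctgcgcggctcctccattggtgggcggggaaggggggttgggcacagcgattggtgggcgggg
Per1: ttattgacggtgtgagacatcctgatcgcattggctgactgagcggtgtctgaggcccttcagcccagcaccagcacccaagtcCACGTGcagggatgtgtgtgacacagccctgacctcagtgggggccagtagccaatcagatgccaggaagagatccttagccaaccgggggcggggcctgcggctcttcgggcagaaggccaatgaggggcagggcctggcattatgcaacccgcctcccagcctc
Cry1: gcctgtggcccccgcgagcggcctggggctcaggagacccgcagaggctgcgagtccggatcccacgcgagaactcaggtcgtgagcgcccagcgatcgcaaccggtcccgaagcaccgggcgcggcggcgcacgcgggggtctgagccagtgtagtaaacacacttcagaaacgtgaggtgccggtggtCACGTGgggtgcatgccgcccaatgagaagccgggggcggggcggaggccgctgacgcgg
The Arntl sequence holds 2 matches to the loose ROR form, with T and C at N, and the Per1 and Cry1 sequences hold 1 E-box each. The windows of Per3 and Cry2, not shown, also held 1 match each to the loose ROR form. The second of the 2 Per1 windows held no motif. Over all 32851 windows, 7.15% held the E-box and 10.96% the loose ROR form. Whether the matches in Arntl are ROR elements was not tested. The D-box TTANNTAA, the kind of site that DBP binds, was searched in the same way and was present in 6.003% of the windows and, among the members, in that of Per3. A match is a description of the letters and not of binding. The windows of Clock, Nr1d1, Nr1d2 and Dbp held none of these motifs.

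Levels are given as counts per 1000000 UMIs of the gate (CPM), untreated first and ConA second, and ratios are log2 of ConA over untreated. Intervals are 95% and cover counting error only: exact conditional intervals for ratios, exact Poisson for levels and Clopper-Pearson for shares. Each group is a single library, so differences have no replicate check, were not tested and describe these libraries.

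**Figure D1:**
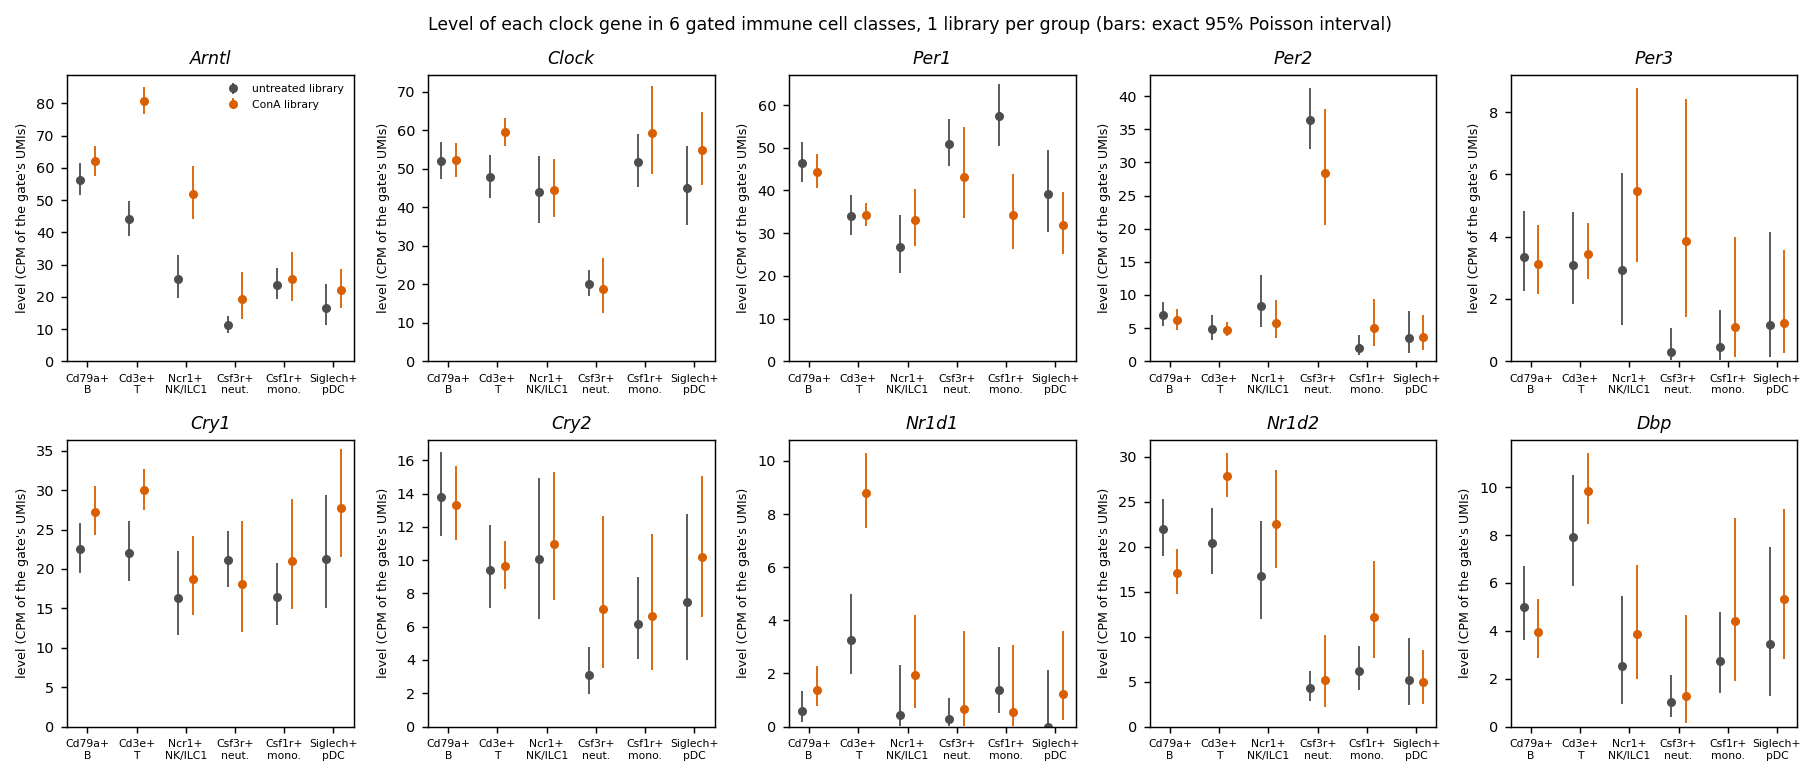
Level of each of the 10 clock genes in CPM (y axes, linear, each starting at 0) in the 6 gated classes (x axes), grey for the untreated and orange for the ConA library, 1 library each; bars are exact 95% Poisson intervals. Per2 stands out in Csf3r-gated neutrophils of both libraries (36.4 and 28.4 CPM), Nr1d1 in Cd3e-gated T cells of the ConA library (8.80 CPM), and Arntl is lowest in neutrophils of both.

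Across classes, neutrophils were lowest in Arntl and Clock and highest in Per2 in both libraries. The full order of the classes differed between the libraries for every member, and many of its steps were within counting error. Arntl was highest in B and T cells and lowest in neutrophils in both libraries. In the untreated library its order was B (56.3 CPM), T (44.1), NK and ILC1 (25.5), monocytes and macrophages (23.8), pDC (16.7) and neutrophils (11.3). The steps from B to T and from T to NK exceeded counting error, and the 3 lower steps did not. In the ConA library T cells stood first (80.9 CPM), then B (62.1) and NK cells and ILC1 (51.9), and the steps below monocytes and macrophages (25.4) were again within counting error. Clock was even over 5 classes, with 44.0 to 51.9 CPM in the untreated and 44.5 to 59.4 CPM in the ConA library, and lower in neutrophils (20.05 and 18.7 CPM). No neighbouring classes differed beyond counting error in Clock except at this last step.

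Per2, a repressor of the loop, was highest in neutrophils, the class where Arntl and Clock were lowest. The order of the other classes was not the reverse of that of Arntl. Per2 was 36.4 and 28.4 CPM in neutrophils and between 2.06 and 8.38 CPM in the other 5 classes of either library. The step from neutrophils to the next class was 2.12 (1.46 to 2.86) on the log2 scale in the untreated and 2.20 (1.62 to 2.77) in the ConA library. The same could be seen by cell. After thinning each cell to 1000 UMIs, Per2 was detected in 3.85% (3.08 to 4.74) and 4.04% (2.37 to 6.39) of neutrophils, with 235 and 49 shallower cells left out (8.39% and 7.66% unthinned). Haemoglobin-rich cells without a lineage marker, taken as a comparison for free RNA, gave 0 of 96 and 0 of 756, which allows shares of up to 3.77% and 0.487%. The untreated limit lies within the interval of untreated neutrophils. Median depths were 2434 and 2828 UMIs in neutrophils and 3409.5 and 2904 in the haemoglobin-rich cells.

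Per1, the member that also answers directly to stress and hormone signals, varied 2.14-fold over the untreated and 1.40-fold over the ConA classes. Neighbouring classes in its order were within counting error, but the intervals of the ends did not overlap in either library. In the untreated library the ends were 57.4 CPM (50.5 to 64.9) in monocytes and macrophages and 26.8 CPM (20.6 to 34.2) in NK cells and ILC1. In the ConA library B cells stood first (44.4 CPM, 40.6 to 48.6) and pDC last (31.8 CPM, 25.2 to 39.7). Of the members detected in every class, Cry1 varied least in the untreated library, 1.38-fold (1.66-fold in the ConA library). Nr1d2 separated lymphocytes (16.8 to 21.9 CPM) from myeloid cells and pDC (4.31 to 6.17 CPM) in the untreated library. Across the 6 classes, Pearson's r between the libraries on log2(CPM + 5), with classes that share a library and its free RNA, was 0.97 for Clock, 0.96 for Per2, 0.90 for Nr1d2 and Dbp, 0.89 for Arntl, 0.88 for Cry2, 0.83 for Nr1d1, 0.65 for Cry1, 0.51 for Per3 and 0.49 for Per1.

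The members were compared class by class to see whether their differences between the libraries were alike in all classes. No table here measures clock phase, and a shift of phase was not tested. Of the 60 pairs of member and class, 44 had at least 30 UMIs in both libraries together and were compared. In 3 of the 44 pairs (6.82%) the ConA level was at least 2-fold higher, against 5.51% of 63414 gene and class pairs over all genes, and in 0 it was at least 2-fold lower, against 4.69%. The share past 2-fold was thus close to that of all genes. The counting interval lay above 0 in 9 pairs (20.5%, against 22.3% of all pairs) and below 0 in 2 (4.55%, against 17.8%). The median log2 ratio was 0.15 over the 44 pairs and 0.05 over all pairs, and 68.2% of the member pairs were above 0, against 55.2%.

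**Figure D2:**
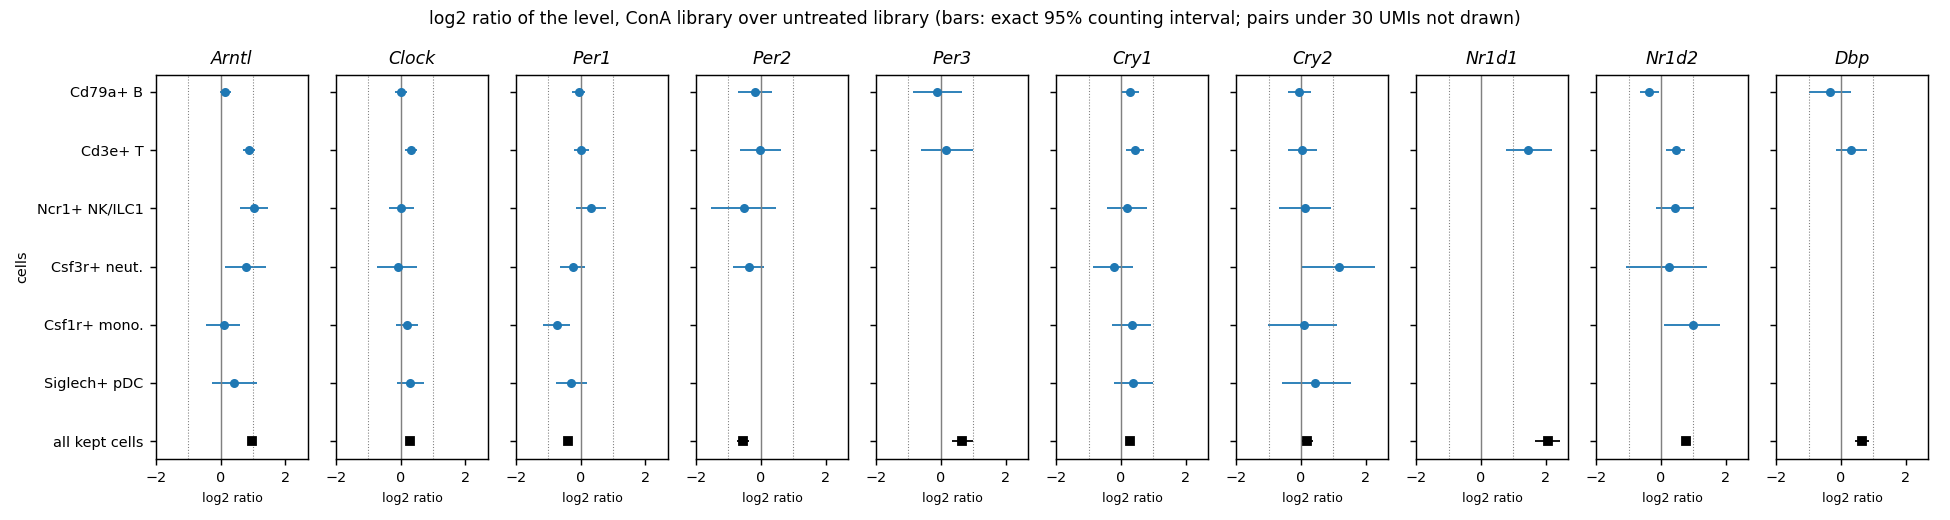
log2 ratio of the level in the ConA library over that in the untreated library (x axes) for each clock gene (panels) in the 6 gated classes (circles) and in all kept cells (black squares); bars are exact 95% counting intervals, dotted lines mark 2-fold, and pairs under 30 UMIs are not drawn. Arntl lies right of 0 in all 6 classes, from 0.10 to 1.02 (under other settings down to -0.71 in monocytes and macrophages and -0.23 in pDC), while Clock, Per1, Per2 and Cry2 lie near 0 in most, and Cry2 reaches 1.18 in neutrophils.

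Arntl was higher in the ConA library in each of 6 classes, with 3 intervals above 0, while Per2 was lower in each of the 4 where it was compared. Of all genes, from 46.2% in B cells to 62% in neutrophils were above 0. In monocytes and macrophages the median gene stood at 0.16, above Arntl at 0.10. Under other settings the direction of Arntl turned in monocytes and macrophages (down to -0.71) and in pDC (down to -0.23). In NK cells and ILC1 Arntl stood at 25.5 and 51.9 CPM (log2 ratio 1.02, interval 0.59 to 1.47), where 2.97% of all genes were at least 2-fold higher. In T cells it was 44.1 and 80.9 CPM (0.88, 0.69 to 1.07), and in neutrophils 11.3 and 19.3 CPM (0.78, 0.12 to 1.40). The 5 T cell markers summed to 786 and 1085 CPM in the NK gate and to 188 and 339 CPM in the neutrophil gate, and cells with a secondary granule gene UMI made up 10.7% and 45.1% of the neutrophil gate. The part of T cell RNA in these values was not tested. In B cells it was 56.3 and 62.1 CPM (0.14, -0.03 to 0.31), in monocytes and macrophages 23.8 and 25.4 CPM (0.10, -0.44 to 0.61) and in pDC 16.7 and 22.0 CPM (0.40, -0.27 to 1.11), each with an interval that holds 0. The share of T cells with an Arntl UMI, thinned, was 5.39% (4.32 to 6.64) and 7.44% (6.69 to 8.24), with 43 and 96 cells left out (14.2% and 22.8% unthinned). Haemoglobin-rich cells gave 0% (up to 3.77%) and 1.06% thinned, and 3.64% and 3.68% unthinned. Median depths were 3747.5 and 3737 UMIs in T cells. The Arntl level of haemoglobin-rich cells was 12.4 and 13.1 CPM, from 5 and 32 UMIs, beside 11.3 and 19.3 CPM in neutrophils. The part of free RNA in the neutrophil values was not tested.

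Clock, the partner of Arntl, differed little. Its log2 ratio lay between -0.10 and 0.31 in the 6 classes, and T cells alone had an interval above 0 (47.8 and 59.4 CPM, 0.31, 0.13 to 0.50). In B cells it was 51.9 and 52.2 CPM (0.01, -0.18 to 0.19), which leaves room for a difference of at most 0.19 on the log2 scale in either direction at this depth.

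The Per genes gave no common direction. Per1 was lower in the ConA library in monocytes and macrophages, 57.4 and 34.3 CPM (-0.74, -1.17 to -0.34), and its interval held 0 in the other 5 classes, among them T cells (34.0 and 34.2 CPM, 0.01, -0.22 to 0.24). Immediate early genes, which answer to the same kinds of stimulus as Per1, had a median log2 ratio of -0.69 over 12 genes in the Csf1r gate. Per1 is itself a member of the glucocorticoid list, whose median over 10 genes was -0.17 there. Their part in the Per1 value was not tested. Per2 was 36.4 and 28.4 CPM in neutrophils (-0.36, -0.86 to 0.11) and between -0.53 and -0.04 in the 4 classes with enough UMIs, with every interval holding 0. Per3 had few UMIs, 133 and 214 over all kept cells, and was compared in B (3.36 and 3.12 CPM) and T cells (3.08 and 3.45 CPM) alone.

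Of the Cry genes, Cry1 was slightly higher in ConA T cells (22.03 and 30.004 CPM, 0.45, 0.17 to 0.73) and B cells (22.5 and 27.3 CPM, 0.28, 0.01 to 0.55). In neutrophils it was 21.1 and 18.0 CPM (-0.22, -0.86 to 0.37). Cry2 was past 2-fold in neutrophils, from 21 and 11 UMIs (3.12 and 7.09 CPM, 1.18, -0.01 to 2.30), in a gate where 7.74% of genes were at least 2-fold higher. In the other 5 classes its log2 ratio lay between -0.05 and 0.45.

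Nr1d1, the REV-ERB alpha gene, was measurable in T cells alone. There it had 20 and 158 UMIs, 3.24 and 8.80 CPM, a log2 ratio of 1.44 (0.77 to 2.19; 0.74 with 5 CPM added to both levels), and 4.17% of genes were at least 2-fold higher in that gate. The other 5 classes held 0 to 6 UMIs in the untreated and 1 to 15 in the ConA library. The share of T cells with an Nr1d1 UMI, thinned, was 0.260% (0.0709 to 0.664) and 0.858% (0.611 to 1.17), or 1.01% and 3.08% unthinned. Haemoglobin-rich cells gave 0% (up to 3.77%) and 0.132% thinned, and 0.909% (up to 4.96%) and 0.526% unthinned. Their Nr1d1 level was 2.48 CPM from 1 UMI and 1.63 CPM from 4 UMIs. In the untreated library the T cell share was thus not separated from that of haemoglobin-rich cells at this depth. In the GRCm38 annotation Nr1d1 overlaps Thra, the thyroid hormone receptor alpha gene, on the opposite strand, and whether the counting used strand is not stated in the sources at hand. Thra itself was 21.7 and 25.2 CPM in T cells (0.22, -0.06 to 0.51).

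Nr1d2, the REV-ERB beta gene, differed in direction between classes. It was higher in ConA T cells (20.4 and 27.9 CPM, 0.45, 0.17 to 0.74) and in monocytes and macrophages (6.17 and 12.2 CPM from 27 and 22 UMIs, 0.98, 0.10 to 1.84), and lower in ConA B cells (21.9 and 17.1 CPM, -0.36, -0.66 to -0.06). Dbp was 7.94 and 9.85 CPM in T cells (0.31, -0.15 to 0.80) and 4.98 and 3.95 CPM in B cells (-0.34, -0.98 to 0.31). No difference in Dbp was detectable at this depth in either class. Dbp also overlaps another gene, Sphk2, on the opposite strand, as do Arntl (Gm45355) and Cry2 (D930015M05Rik). Clock (Ube2n-ps1 and Gm43658) and Per3 (Camta1) overlap genes on the same strand. The part of these overlaps in the values was not tested.

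Since Arntl and the output genes come from the same cells, their UMIs were also set against each other, which cancels depth and scaling. The UMIs of Nr1d1, Nr1d2 and Dbp together per UMI of Arntl were 0.488 (0.416 to 0.571) and 0.361 (0.311 to 0.418) in B cells, a log2 ratio of -0.43 (-0.75 to -0.12). In T cells they were 0.717 (0.593 to 0.865) and 0.575 (0.528 to 0.627), a log2 ratio of -0.32 (-0.62 to -0.02). In NK cells and ILC1 the ratio was 0.770 and 0.547 (-0.50, -1.20 to 0.21) and in neutrophils 0.500 and 0.367 (-0.45, -1.74 to 0.77). It was higher in monocytes and macrophages, 0.433 and 0.674 (0.64, -0.25 to 1.52, but -0.35 with 7 output genes), and level in pDC, 0.517 and 0.519 (0.00, -1.20 to 1.24). The balance was thus shifted toward Arntl beyond counting error in B and T cells, and the other 4 intervals hold 0. In T cells this came with higher values of both sides of the loop, Arntl at 0.88, Nr1d1 at 1.44 and Nr1d2 at 0.45.

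**Figure D3:**
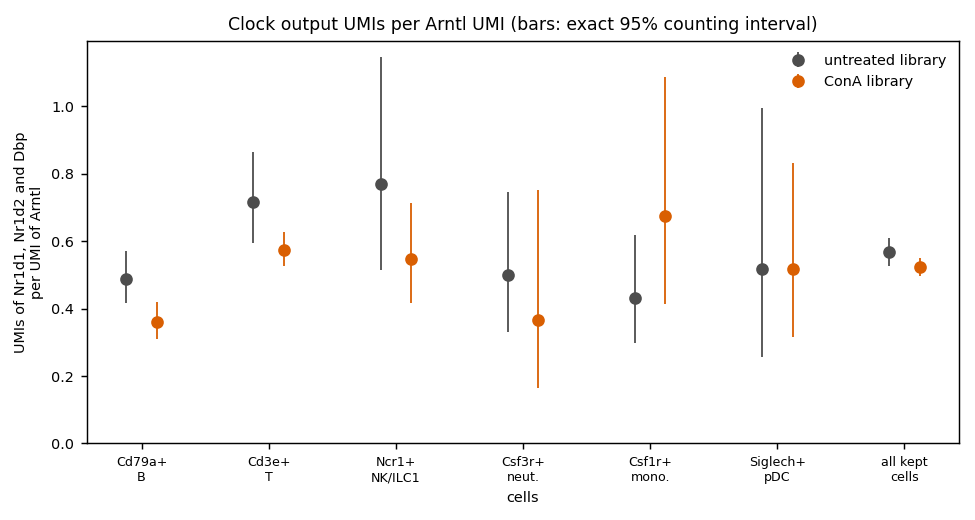
UMIs of the output genes Nr1d1, Nr1d2 and Dbp per UMI of Arntl (y axis, linear, from 0) in the 6 gated classes and all kept cells (x axis), grey for the untreated and orange for the ConA library; bars are exact 95% counting intervals. The ConA value is lower in B cells (0.488 and 0.361) and T cells (0.717 and 0.575), higher in monocytes and macrophages and the same in pDC.

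Because T cells held the only measurable Nr1d1, the T cell gate was divided after these values had been seen. Cells with a UMI of Klrb1c, which encodes NK1.1, or of Zbtb16, the transcription factor PLZF of innate-like T cells, were 462 of 1582 untreated T cells (29.2%) and 1578 of 4641 ConA T cells (34%, interval 32.6 to 35.4). Nr1d1 was 7.27 CPM from 15 UMIs in these cells of the untreated library and 1.22 CPM from 5 UMIs in the other T cells. In the ConA library it was 18.5 CPM from 118 UMIs and 3.45 CPM from 40 UMIs. The innate-like side of the gate was therefore higher in both libraries, with log2 differences of 2.58 (1.05 to 4.39) and 2.42 (1.89 to 2.98), and it held 75% and 74.7% of the Nr1d1 UMIs of T cells. Cells with the gamma-delta receptor gene Trdc, 8.47% and 11.1% of the gate, also had more Nr1d1 than other T cells, 10.5 and 2.50 CPM in the untreated library (2.07, 0.40 to 3.54) and 29.9 and 6.04 CPM in the ConA library (2.31, 1.82 to 2.78). Between the libraries Nr1d1 was higher in ConA among cells with Klrb1c or Zbtb16 (1.35, 0.57 to 2.23), with Trdc (1.51, 0.31 to 3.01) and with Ccr7 or Lef1, genes of naive and circulating T cells (2.47 and 6.04 CPM, 1.29, 0.40 to 2.30). In cells with Cd8a or Cd8b1 it was 2.56 and 4.07 CPM, and the interval held 0 (0.67, -0.60 to 2.22). Cells of 1 such division can still differ in makeup between the libraries.

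Arntl was spread more evenly over the gate. Among cells with Klrb1c or Zbtb16 and other T cells it was 59.1 and 36.5 CPM in the untreated library, a log2 difference of 0.70 (0.34 to 1.05), and 116.1 and 61.5 CPM in the ConA library (0.92, 0.77 to 1.07). Between the libraries Arntl was higher in ConA among cells with Klrb1c or Zbtb16 (0.97, 0.69 to 1.26) and with Ccr7 or Lef1 (43.5 and 73.8 CPM, 0.76, 0.55 to 0.98). The same held for cells with Cd8a or Cd8b1 (29.8 and 61.2 CPM, 1.04, 0.67 to 1.42), with Cd4 (40.6 and 77.5 CPM, 0.93, 0.55 to 1.33) and with Trdc (42.0 and 143 CPM, 1.77, 1.16 to 2.43). At least 2-fold higher were 5.26% of all genes in the cells with Klrb1c or Zbtb16, 3.65% in those with Ccr7 or Lef1, 4.23% in those with Cd8a or Cd8b1 and 6.62% in those with Trdc. Clock was level across the division by Klrb1c or Zbtb16, 48.5 and 47.4 CPM in the untreated library (0.03, -0.33 to 0.39). In the ConA library it was 62.1 and 57.9 CPM (0.10, -0.08 to 0.28). Per1 was also level across this division (35.9 and 33.1 CPM, then 36.1 and 33.2 CPM). Nr1d2 differed across it in the ConA library, 36.9 and 22.95 CPM (0.68, 0.42 to 0.94). In the untreated library Nr1d2 differed less, 22.3 and 19.5 CPM (0.20, -0.36 to 0.74), and that difference between libraries was not tested. Other divisions of the ConA gate were not level in Clock. Cells with Trdc had more Clock than other T cells, 81.5 and 56.5 CPM (0.53, 0.28 to 0.77). Cells with Ccr7 or Lef1 had less, 56.1 and 67.2 CPM (-0.26, -0.45 to -0.07). In the untreated library both of these intervals held 0 (-0.32 to 0.79 and -0.40 to 0.43).

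**Figure D4:**
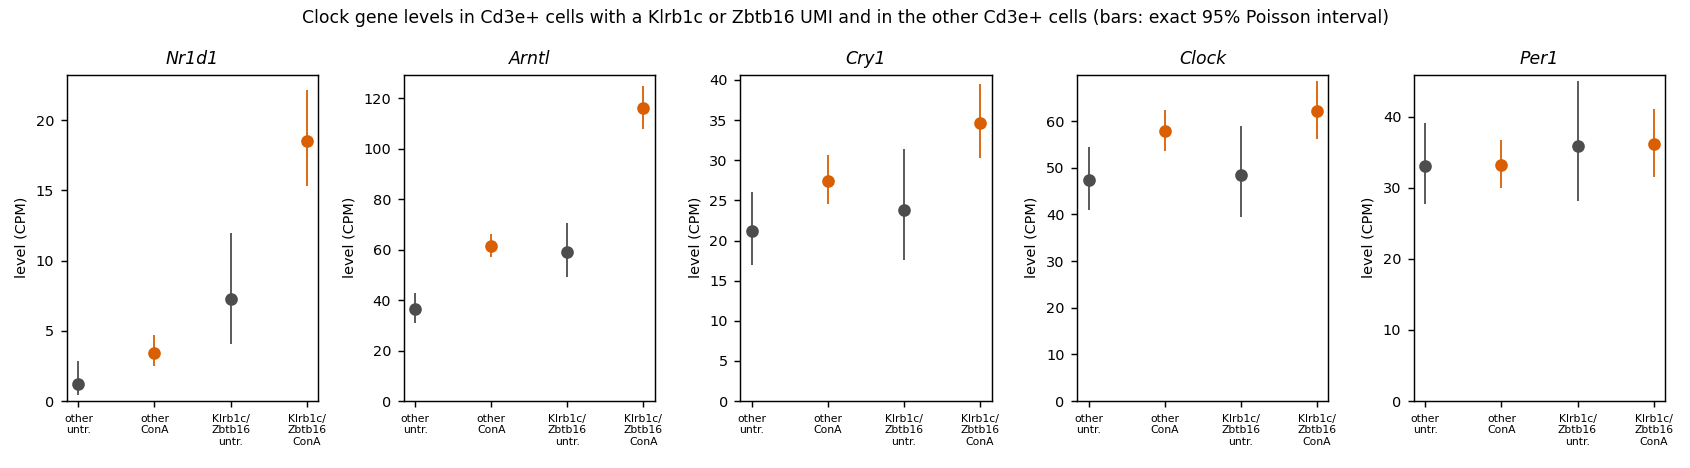
Levels in CPM (y axes, linear, from 0) of 5 clock genes in Cd3e-gated cells with a Klrb1c or Zbtb16 UMI and in the other Cd3e-gated cells (x axes), grey for the untreated and orange for the ConA library; bars are exact 95% Poisson intervals. Nr1d1 is 7.27 and 18.5 CPM in the cells with Klrb1c or Zbtb16 and 1.22 and 3.45 CPM in the others, whereas Per1 lies between 33.1 and 36.1 CPM throughout.

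Over all kept cells of a library, the ratio was further from 0 than with equal class weights for every member except Per3 and Cry2. Arntl was 29.1 and 57.2 CPM (0.98, 0.90 to 1.05), Nr1d1 0.951 and 3.96 CPM (2.06, 1.67 to 2.46), Nr1d2 11.6 and 19.7 CPM (0.77, 0.64 to 0.89), and Dbp 3.98 and 6.25 CPM (0.65, 0.44 to 0.87). Per2 was 9.31 and 6.34 CPM (-0.56, -0.73 to -0.38) and Per1 46.5 and 35.7 CPM (-0.38, -0.46 to -0.31). Nr1d1 alone was past 2-fold, and of 16664 genes 8.30% were at least 2-fold higher and 9.43% lower there. The mix of classes differed at the same time. T cells gave 20.6% and 47.6% of the UMIs of gated cells, neutrophils 22.4% and 4.11%, and monocytes and macrophages 14.6% and 4.79%. With the untreated level of every class and the ConA mix, the log2 ratio would be -0.85 for Per2, 0.69 for Nr1d1, 0.51 for Dbp, 0.38 for Nr1d2 and 0.29 for Arntl. Over gated cells pooled, without weights, it was 2.11 for Nr1d1, 0.72 for Dbp, 0.60 for Nr1d2 and 0.90 for Arntl. Per2 was 12.3 and 6.14 CPM in these cells, a log2 interval of -1.25 to -0.76. With equal weight for each class the log2 ratio was -0.21 for Per2, 1.30 for Nr1d1, 0.34 for Dbp, 0.26 for Nr1d2 and 0.56 for Arntl. For Nr1d1 this draws on classes with few UMIs, since those other than T cells held 0 to 6 untreated and 1 to 15 ConA UMIs. The value for the class mix alone was further from 0 than that with equal class weights for Per2, Dbp and Nr1d2. For Cry2 it was so by little (0.22 and 0.21).

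**Figure D5:**
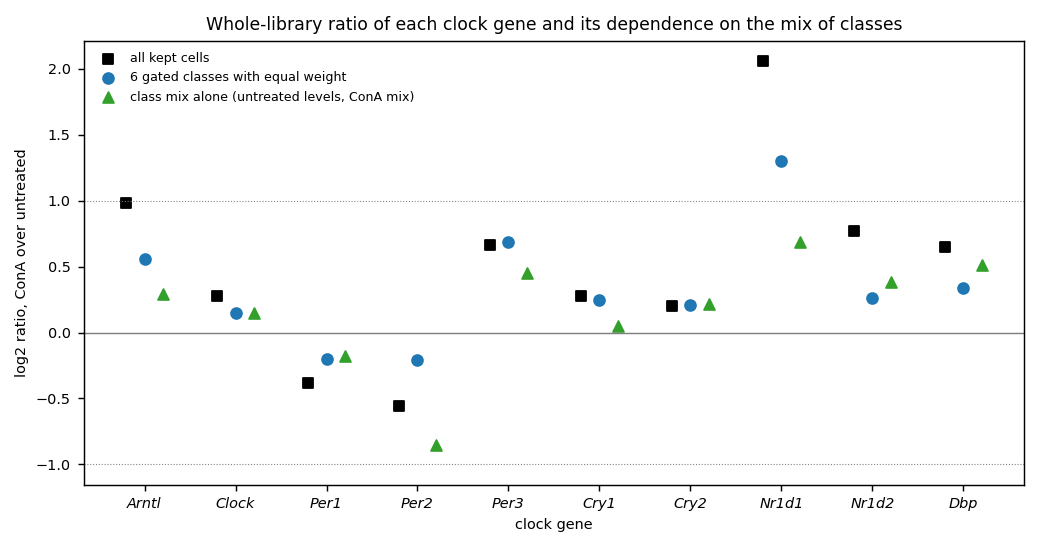
log2 ratio of ConA over untreated (y axis) for each clock gene (x axis) over all kept cells (squares), with the 6 classes weighted equally (circles) and for the class mix alone at untreated levels (triangles); dotted lines mark 2-fold. For Per2 the mix alone gives -0.85 and equal weights -0.21, and for Arntl the mix alone gives 0.29 and equal weights 0.56.

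Beyond the members, 26 further clock genes were read in the same way. Of those with at least 30 UMIs, 2 of 22 were at least 2-fold higher in T cells and 0 lower, and the counts were 1 and 1 of 20 in B cells, 0 and 1 of 18 in NK cells and ILC1, 1 and 1 of 17 in neutrophils, 1 and 1 of 18 in monocytes and macrophages, and 1 and 0 of 17 in pDC. Over all genes of these classes the shares higher and lower were 4.17% and 3.43% in T cells, 4.80% and 4.94% in B cells, 2.97% and 3.88% in NK cells and ILC1, 7.74% and 7.15% in neutrophils, 10.2% and 5.71% in monocytes and macrophages, and 3.56% and 3.19% in pDC. Only Rora and Timeless were past 2-fold in at least 2 classes. Rora, which encodes the activating ROR alpha that competes with REV-ERB at ROR elements, was higher in B cells (6.38 and 21.4 CPM, 1.75), neutrophils (9.36 and 24.5 CPM, 1.39) and pDC (12.1 and 27.4 CPM, 1.18). It was most abundant in T cells (123 and 232 CPM, 0.92, 0.81 to 1.03). Free RNA, estimated from S100a8 and S100a9, made up at most 9.80% and 28.1% of the UMIs of B cells and 7.36% and 19.9% of those of pDC, and the 5 T cell markers summed to 154 and 294 CPM in B cells and to 120 and 249.9 CPM in pDC. The part of T cell RNA in the low Rora values was not tested. Timeless, which in mammals acts chiefly at the replication fork, was lower in NK cells and ILC1 (17.2 and 3.54 CPM, -2.28), neutrophils (11.7 and 2.58 CPM, -2.19) and monocytes and macrophages (40.7 and 9.40 CPM, -2.11). The cycling markers Mki67 and Top2a summed to 61.1 and 28.0 CPM in NK cells and ILC1, but to 10.1 and 105.7 CPM in neutrophils and 16.003 and 269 CPM in monocytes and macrophages.

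Some members answer to hormones, stress and temperature as well as to the clock, so genes of those inputs were set beside them. In all 6 classes the heat-shock gene Hsph1 was at least 2-fold higher in the ConA library, with log2 ratios from 1.61 in NK cells and ILC1 to 2.42 in pDC. The cold-inducible RNA-binding protein gene Cirbp was at least 2-fold lower in 5 classes, among them T cells (127 and 49.5 CPM, -1.36, -1.50 to -1.22), and Rbm3, of the same kind, in 4, among them T cells (512 and 197 CPM, -1.38, -1.45 to -1.31). The phosphatase gene Dusp1, which is in both the glucocorticoid and the immediate early list, was at least 2-fold lower in 4 classes, and the heat-shock genes Hspa1b and Stip1 were higher in 5 and 4 classes and Hspa1a in the 4 where it was compared. Of the other heat-shock genes, Dnajb1, Hspe1 and Hspa8 were past 2-fold in 0 classes, and Hsp90aa1 and Hspd1 were higher in 1. In the glucocorticoid list Zbtb16 was higher in 3 classes and Il7r in 2, while Tsc22d3 and Ddit4 were lower in 1. Atf3, of the immediate early list, was lower in 2. The shares of all genes past 2-fold in each class are given above. Whether temperature or handling had a part in the clock gene values was not tested. RNA of hepatocytes, cells with a strong clock, was low in all gates: 7 hepatocyte markers summed to between 57.5 and 173 CPM in the untreated and between 45.7 and 307 CPM in the ConA library.

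Genes whose levels over the 12 class and library values were most like those of the 4 most abundant members were sought among 9024 genes. On log2(CPM + 5), the nearest to Arntl were Glmn, Cdk8 and Nfatc3 (Pearson's r 0.943, 0.942 and 0.942). The nearest to Clock were Eri1, Rad23b and Mapk8 (0.961, 0.957 and 0.955), to Per1 A630001O12Rik, Hnrnph2 and Ensa (0.881, 0.864 and 0.844) and to Cry1 Tcf20, Crebbp and Pot1a (0.826, 0.799 and 0.793). Values of a library share its depth and free RNA, and the likeness is a description only.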

How the data were processed

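Libraries were made with a 10x Genomics 3' kit, version 3.1, per the labels' protocols. The authors deposited unnormalized UMI counts, which per the file headers come from cellranger 8.0.1. The tools listed in the submitters' processing notes are Seurat 4.3.0 and, in another version, Cell Ranger 6.0.1, with mm39 as the build. The members, lists and gates were chosen with earlier results of these data known.

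Cells were filtered on depth (500 UMIs or more), detected genes (300 or more) and mitochondrial UMIs (10% or less). A cell was gated by a UMI of exactly 1 of the 6 markers, and no doublet caller was used except as an alternative. This left out 6628 untreated (37.6%) and 4655 ConA (26.2%) cells with markers of more than 1 class, doublets among them. They held 36000682 of 70437228 untreated and 25508299 of 71795134 ConA UMIs. The doublet scores of the alternative, with a removal rate set in advance, flagged 24.7% and 29.3% of these cells. Cells with no marker, 1879 untreated and 3154 ConA, were also left out. UMIs were summed per gate and library (Python 3.11.15, numpy 2.4.6, scipy 1.17.1). Genes with at least 30 UMIs in both libraries together were compared, and 3 counts stood for 0. Named were all members, further clock genes past 2-fold in at least 2 classes, genes of the input lists past 2-fold in at least 4, and the 3 genes most like each of the 4 members with the most UMIs, among genes with at least 20 CPM in 1 of the 12 values. Other genes of the input lists are given beside those for contrast. A further division of the T cells is not reported here. The script was tested on simulated data. Alternatives were other gates, filters, scalings, constants, thinning, doublet removal and free RNA subtraction. Coordinates are those of the promoter windows (GRCm38.p6) alone, a build other than the one in the notes.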

Additional observations from a re-analysis of the deposited data

Results flagged for a closer look

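Nr1d2, the REV-ERB beta gene, differed in opposite directions between classes, with intervals on either side of 0. The log2 ratio of ConA over untreated was 0.45 in T cells and 0.98 in monocytes and macrophages, but -0.36 in B cells. Each value comes from 1 library per group, and the difference between classes was not tested. In the monocyte and macrophage gate it rests on 27 and 22 UMIs. The T cell value lay between 0.37 and 0.58 in 11 alternatives, that of monocytes and macrophages between 0.11 and 1.07, and that of B cells between -0.52 and 0.04.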

How the results depend on the processing

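No paired analysis was possible because each group has 1 library. The 3 member and class pairs at least 2-fold higher became 0 with a constant of 5 CPM (2.17% over all genes), and 1 pair was at least 2-fold lower with at least 2 UMIs of the marker (4.63%) or with cells thinned to 1000 UMIs (4.74%), against 0 in the reported analysis. Nr1d1 in T cells (1.44) lay between 0.74 and 1.76 in 11 alternatives and was under 2-fold with the constant of 5 CPM alone. Arntl in NK cells and ILC1 lay between 0.48 and 1.14 and stayed past 2-fold in 6 of 11, and Cry2 in neutrophils lay between 0.57 and 2.05, past 2-fold in 9 of 11. Arntl in T cells lay between 0.54 and 0.92, but its direction turned in 4 of 11 alternatives in monocytes and macrophages (-0.71 to 0.63) and in 1 of 11 in pDC (-0.23 to 1.20).

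Class weights change 2 things at a time in the ratios over all kept cells, since cells outside the gates are also left out. Over gated cells pooled, without weights, the ratio was 0.90 for Arntl, 2.11 for Nr1d1 and 0.60 for Nr1d2, and Per2 moved furthest, to a level in ConA 0.499 times that in untreated cells. With equal class weights and with untreated class weights the ratios became 0.56 and 0.48 for Arntl, 0.15 and 0.12 for Clock, -0.20 and -0.19 for Per1, -0.21 and -0.23 for Per2, 1.30 and 1.23 for Nr1d1, 0.26 and 0.16 for Nr1d2, and 0.34 and 0.20 for Dbp. In alternatives added after seeing the data, cells with none of the markers gave other ratios, which were 0.41 for Arntl, -0.07 for Clock, -0.58 for Per1, 0.05 for Per2, -0.47 for Cry1, -0.08 for Cry2, 2.57 for Nr1d1 (from 2 and 23 UMIs) and 0.48 for Nr1d2. In cells with markers of 2 or more classes, they were -0.01 for Per2 and 0.96 for Nr1d2. With 7 output genes in place of 3, the output to Arntl ratio became -0.63 in T cells and turned from 0.64 to -0.35 in monocytes and macrophages. Depth limits Nr1d1, Per3 and Dbp most, with 67, 133 and 280 UMIs over all kept untreated cells.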

Other observations

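Neutrophils were also divided by a UMI of the secondary granule genes Ngp, Camp or Ltf, made as neutrophils mature, which 10.7% of untreated and 45.1% of ConA cells of the Csf3r gate held. Per2 was 35.3 CPM (24.2 to 49.8) with and 36.6 CPM (31.8 to 41.8) without such a UMI in the untreated library, and 22.5 CPM (13.6 to 35.2) and 35.3 CPM (22.9 to 52.1) in the ConA library. The high Per2 level of neutrophils was thus present in both parts of the gate. Arntl was 12.1 CPM (6.06 to 21.7) and 11.2 CPM (8.61 to 14.2) in the untreated parts. In the ConA library it was 5.93 CPM (1.92 to 13.8) with and 35.3 CPM (22.9 to 52.1) without a granule gene UMI, from 5 and 25 UMIs. With a granule gene UMI the intervals of the libraries overlapped, and without one they did not. These are values of 1 library each and were not tested.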
